A study of Mus musculus with 24 samples.

Results

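The comparison described here is between macrophages of 2 genotypes that had both been treated with interleukin-4, KO M2 and WT M2. Its members are the 8 arrays whose titles name a GLUT1 KO or GLUT1 WT sample in the M2 state, out of 24 arrays in the series. The KO cells came from LysMCre X Slc2a1fl/fl mice, which the labels also write Slc2a1M-/-, and the WT cells came from Slc2a1 fl/fl mice. Both genotypes therefore carry the floxed gene for the glucose transporter GLUT1, and the KO mice alone carry Cre recombinase. Marrow cells of both were grown into macrophages in M-CSF (20 ng/ml, over 6 days) and then received 10 ng/ml interleukin-4 for 24 h, with 4 biological replicates of each genotype. The other 16 arrays hold the same genotypes given interferon-gamma (10 ng/ml) together with lipopolysaccharide (5 ng/ml), called M1, or left untreated (M0), again 4 of each. Cre is driven by the lysozyme M locus, so it acts in cells of the myeloid lineage, and the sources used here do not give the deleted exons, the share of cells that recombined, or the sex and age of the mice.

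Interleukin-4 binds a receptor that contains IL4RA and activates the transcription factor STAT6, which turns on genes such as Arg1, Retnla, Chil3 and Mrc1 in mouse macrophages. GLUT1, encoded by Slc2a1, carries glucose across the plasma membrane down its gradient, and glucose then enters glycolysis, the pentose phosphate pathway and glycogen or hexosamine synthesis. Macrophages treated with interleukin-4 are known for arginine metabolism through arginase, uptake of sugars and lipids by surface lectins and scavenger receptors, and oxidative metabolism, whereas lipopolysaccharide with interferon-gamma is known to raise glycolysis.

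RNA was measured on one-colour arrays, and 25936 genes could be tested. Levels are log2 intensities relative to the 75th percentile of the array, and differences are KO minus WT on that scale with the standard error of limma's fit (SE). On the 8 arrays 53.1% to 61.4% of gene probes stood well above background and 0 gene spots were saturated, and the number of arrays limits the precision. The macrophage markers Csf1r, Adgre1 and Cd68 were high in both groups. Csf1r averaged 7.32 in KO M2 and 7.25 in WT M2, Adgre1 7 and 6.91, and Cd68 7.65 and 7.71. Some other genes of macrophage identity were dimmer, such as Cx3cr1 at -1.17 in KO M2 and -2.68 in WT M2, and Lyz2 differed by genotype (below). Some features of single arrays bear on the results. The arrays were grouped here into sets by slide and replicate number, as described under processing, since the labels name no sets. Replicate 4 of both groups fell in the 4th set. There Uty, Ddx3y and Eif2s3y, genes of the Y chromosome, were well above background on 0 of 2 M2 arrays, against 6 of 6 for the other replicates. Xist was so on 2 of 2 against 0 of 6. The probe of a 4th gene of the Y chromosome, Kdm5d, went against this, being above background on 2 of 2 arrays of that set and 6 of 6 others. WT M2 replicate 2 had 1910 spots marked as nonuniform, against 18 to 67 on the other 7 arrays, and lacked a value for 807 of the genes, against 8 to 20. The count of genes lying over 3 log2 units from the median of the other 7 arrays was 274 on that array, 238 on KO M2 replicate 4, 233 on WT M2 replicate 4 and 36 to 60 on the remaining 5.

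Few genes separated the genotypes after interleukin-4. Past an adjusted p of 0.05 (limma, Benjamini-Hochberg), 11 of 25936 genes were called (0.0424%), 4 higher in KO M2 (0.0154%) and 7 lower (0.027%). Among those lower in KO M2 were Atf7, Lyz2, Hhipl1, Lyz1, Platr9 and the clone AK042874, and higher were Tspoap1, Cntd1, Poln and the clone AK084221. The KO M2 and WT M2 arrays did not overlap for any of these 11, and over all genes they did not overlap for 626 (2.41%), of which 419 had every KO M2 array above every WT M2 array (1.62%) and 207 had every one below (0.798%). At an unadjusted p under 0.05 there were 1150 genes (4.43%). The median difference over all genes was 0.04, and 97.5% of the genes lay within 1 log2 unit of 0. In the single sets 1 to 4 the median over all genes was 0.01, 0.25, -0.07 and -0.03. Set 2, which holds WT M2 replicate 2, was thus shifted upward over the genes at large. The deviations of KO and WT arrays of the same replicate number correlated at 0.18 to 0.69, those of unlike numbers at -0.5 to 0.24, and 2 of the 4 pairs correlated best with their own number. With the array set as a block in the fit of 24 arrays 28 genes were called (0.108%), 18 higher and 10 lower in KO M2, including all 11. With the 4th set left out 60 genes were called (0.231%), 50 higher and 10 lower, including 10 of the 11, so that the balance of directions turned under both fits. A fit of the 8 M2 arrays alone with replicate number as a block called 1, Atf7.

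**Figure D1:**
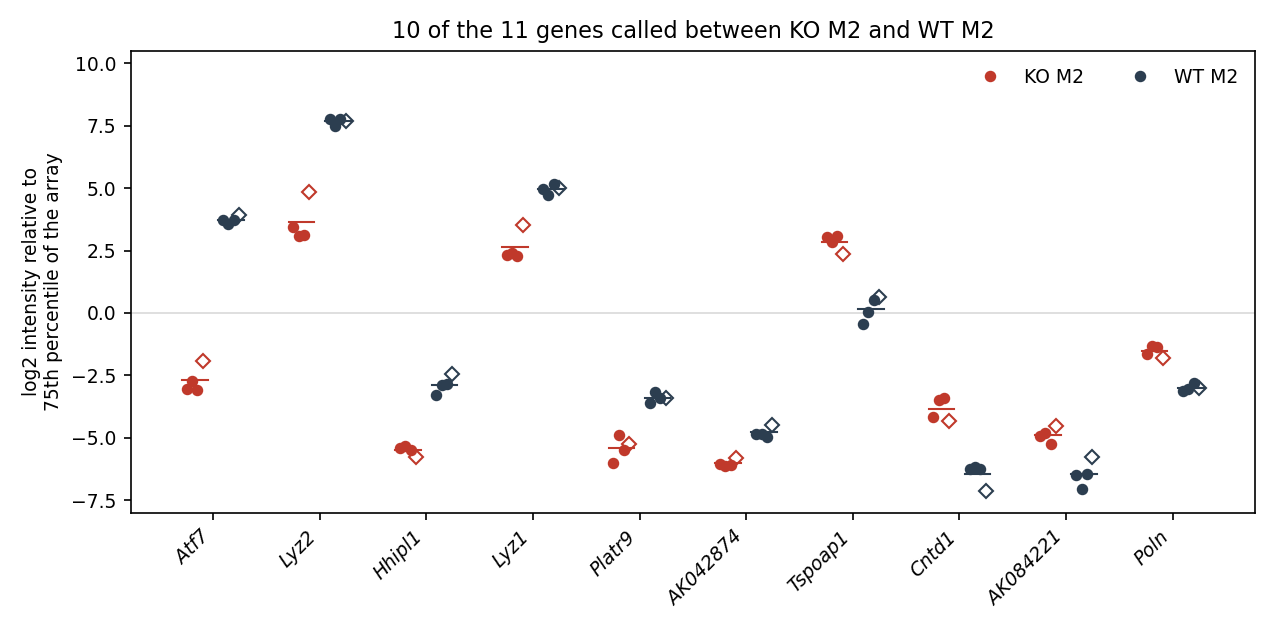
Level of 10 of the 11 called genes on each array, as log2 intensity relative to the 75th percentile of the array, with KO M2 (red, left) and WT M2 (dark, right). Circles are replicates 1 to 3, open diamonds are replicate 4, and bars are means. KO M2 and WT M2 do not overlap for any of the 10. The KO M2 diamond lies nearest to WT M2 for each of them but Hhipl1, Platr9 and AK084221.

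Lyz2 and Atf7 were each read by a probe in coding sequence besides the probe that stood for the gene. The sequences of these coding probes, taken from the array files, are shown because they set the 2 genes apart. At Lyz2 the coding probe differed more than the probe near the transcript's end, and at Atf7 the difference did not pass the test. They are printed in the sense of the transcript, with no base singled out.
Lyz2 probe A_51_P321150: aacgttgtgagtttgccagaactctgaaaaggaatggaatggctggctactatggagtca
Atf7 probe A_52_P274452: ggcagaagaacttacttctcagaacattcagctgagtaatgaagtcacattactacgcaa
The Lyz2 probe lies at chr10:116719175-116719234 and the Atf7 probe, which crosses an intron, at chr15:102368700-102371207, both on the minus strand in the mm9 coordinates of the files.

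Lyz2 encodes the lysozyme of macrophages, an enzyme that breaks bacterial cell walls, and in the LysMCre strain Cre is inserted at this gene. At the probe that stood for the gene (chromosome 10, 116714450 to 116714509), its level was 3.46, 3.08, 3.12 and 4.85 in KO M2, against 7.78, 7.49, 7.75 and 7.67 in WT M2. The groups were far apart, with replicate 4 the highest KO array. The difference was -4.04 ± 0.37 (adjusted p = 6.37e-06, limma), a 16.4-fold lower level in KO M2. At the coding probe printed above, which starts at position 94 of the transcript, the level was -1.71, -2.18, -1.97 and -0.11 in KO M2 and 6.40, 6.21, 6.28 and 6.59 in WT M2. That is a difference of -7.87 ± 0.43, or 234-fold, so the signal near the 5′ end was the more depleted of the 2 in KO M2.

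Lyz1, the neighbouring lysozyme gene known for its expression in Paneth cells of the gut, was read by 1 probe at 116724862 to 116724921 of chromosome 10. It had 2.31, 2.42, 2.29 and 3.51 in KO M2, against 4.96, 4.74, 5.15 and 4.99 in WT M2, a difference of -2.33 ± 0.26 (adjusted p = 0.000118, limma). As for Lyz2, replicate 4 was the KO array nearest to WT. The 2 genes are close copies of each other, and the part of cross-hybridisation between their transcripts in the Lyz1 signal was not tested. Of 86 genes with a probe within 5 Mb of the Lyz2 probe, Lyz1 and Lyz2 were the 2 that were called. The 175 genes within 5 Mb of the Slc2a1 probe included 0 called genes. Over all genes 0.0424% were called, so a count of 0 among so few genes says little about that region.

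Atf7, a transcription factor of the basic leucine zipper family, had the largest difference where the brightest probe stands for each gene, although the Lyz2 coding probe differed by more. Its brightest probe (chromosome 15, 102367127 to 102367186, starting at position 2742 of the transcript) gave -3.03, -2.73, -3.07 and -1.92 in KO M2, against 3.72, 3.56, 3.71 and 3.93 in WT M2. KO M2 was 85.6-fold lower (-6.42 ± 0.31, adjusted p = 1.54e-10, limma), far beyond the spread within either group. The other 4 Atf7 probes that were measured did not follow it. The coding probe printed above had -3.30, -3.12, -2.71 and -2.77 in KO M2 and -3.44, -3.28, -3.24 and -3.11 in WT M2, a difference of 0.29 ± 0.17, and the remaining 3 probes differed by -0.17, -0.02 and 0.33. The call thus rests on 1 probe of 5, and with the mean of all its probes Atf7 differed by -1.2 (adjusted p = 0.0251, limma).

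The other lower genes described here were dim. Hhipl1, related by sequence to a protein that binds hedgehog ligands (chromosome 12, 109560027 to 109560086), had -5.41, -5.32, -5.48 and -5.78 in KO M2, against -3.28, -2.88, -2.86 and -2.46 in WT M2. It differed by -2.62 ± 0.21 (adjusted p = 6.88e-07, limma) and was above background on 1 of 4 KO M2 arrays and 4 of 4 WT M2 arrays. Its other 2 probes were not above background often enough to be tested. Platr9, a long noncoding RNA (chromosome 4, 34857133 to 34857192), had -5.99, -4.89, -5.47 and -5.26 in KO M2 and -3.59, -3.15, -3.42 and -3.42 in WT M2, and differed by -2.01 ± 0.35 (adjusted p = 0.0348). It was above background on 1 of 4 KO M2 arrays and 4 of 4 WT M2 arrays. AK042874 was above background on 0 of 4 KO M2 arrays and 3 of 4 WT M2 arrays, so that it was at least 1.27-fold lower in KO M2, with means of -6.02 in KO M2 and -4.79 in WT M2 (adjusted p = 0.00234, limma).

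Among the higher genes Tspoap1 was the brightest. It encodes a protein that binds the mitochondrial translocator protein TSPO (chromosome 11, 87599260 to 87599319). Its level was 3.03, 2.83, 3.07 and 2.38 in KO M2, against -0.44, 0.02, 0.51 and 0.62 in WT M2, a 6.28-fold higher level in KO M2 (2.65 ± 0.43, adjusted p = 0.0146, limma). A second, dimmer probe differed the same way, with -3.55, -3.26, -2.99 and -3.64 in KO M2 and -7.12, -6.60, -6.17 and -6.46 in WT M2. The genotypes were thus separated at both Tspoap1 probes. Cntd1, a cyclin-like protein known for its part in meiotic crossing over (chromosome 11, 101148951 to 101149010), had -4.15, -3.48, -3.40 and -4.31 in KO M2, against -6.24, -6.15, -6.24 and -7.13 in WT M2. Cntd1 was well above background on 0 of 4 WT M2 arrays, which makes Cntd1 at least 2.75-fold higher in KO M2 (adjusted p = 0.000255, limma).

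Poln, a DNA polymerase (chromosome 5, 34349847 to 34349906), had -1.65, -1.34, -1.37 and -1.79 in KO M2 and -3.13, -3.03, -2.79 and -3.02 in WT M2. It was 2.73-fold higher in KO M2 (1.45 ± 0.24, adjusted p = 0.0236, limma). Its second probe that could be tested differed by 1.4 ± 0.34 and did not pass (adjusted p = 0.314 over all probes, limma). That probe was above background on 1 of 4 KO M2 arrays and 0 of 4 WT M2 arrays. AK084221 was at least 1.33-fold higher, with means of -4.88 in KO M2 and -6.44 in WT M2 (adjusted p = 0.0251), above background on 2 of 4 KO M2 arrays and 0 of 4 WT M2 arrays. Of the 11 calls, 6 held when each of the 8 arrays was left out in turn, namely Atf7, Lyz2, Hhipl1, Lyz1, Cntd1 and AK042874. Tspoap1 lost its call without any of KO M2 replicates 1 to 3 or WT M2 replicates 1 and 2 (adjusted p up to 0.0831). AK084221 lost it without any array but KO M2 replicate 3 and WT M2 replicate 4 (up to 0.135), Poln without any array but KO M2 replicate 4 (up to 0.126), and Platr9 without any of the 8 (0.0552 to 0.176, limma throughout).

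Most of these genes also differed in the other states. In the same fit 11396 genes were called between KO and WT in M1 (43.9%) and 14 in M0 (0.054%). Of the 11 genes called in M2, 10 were also called in M1, all but Tspoap1, and 6 were called in M0, among them Atf7, Lyz2, Hhipl1, Platr9 and AK042874. Atf7 differed by -6.42 in M2, -5.46 in M1 and -6.58 in M0, and Lyz2 by -4.04, -3.37 and -2.66. The test of the difference itself, M2 against M1, was passed by 3 of the 11 and by 29.6% of all genes. Tspoap1 differed by 2.65 in M2 and -0.16 in M1 (difference 2.82, adjusted p = 0.00106), Cntd1 by 2.60 and 0.82 (1.79, adjusted p = 0.00312), and Hhipl1 by -2.62 and -1.72 (-0.90, adjusted p = 0.0228, limma). None of the 11 passed it against M0.

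**Figure D2:**
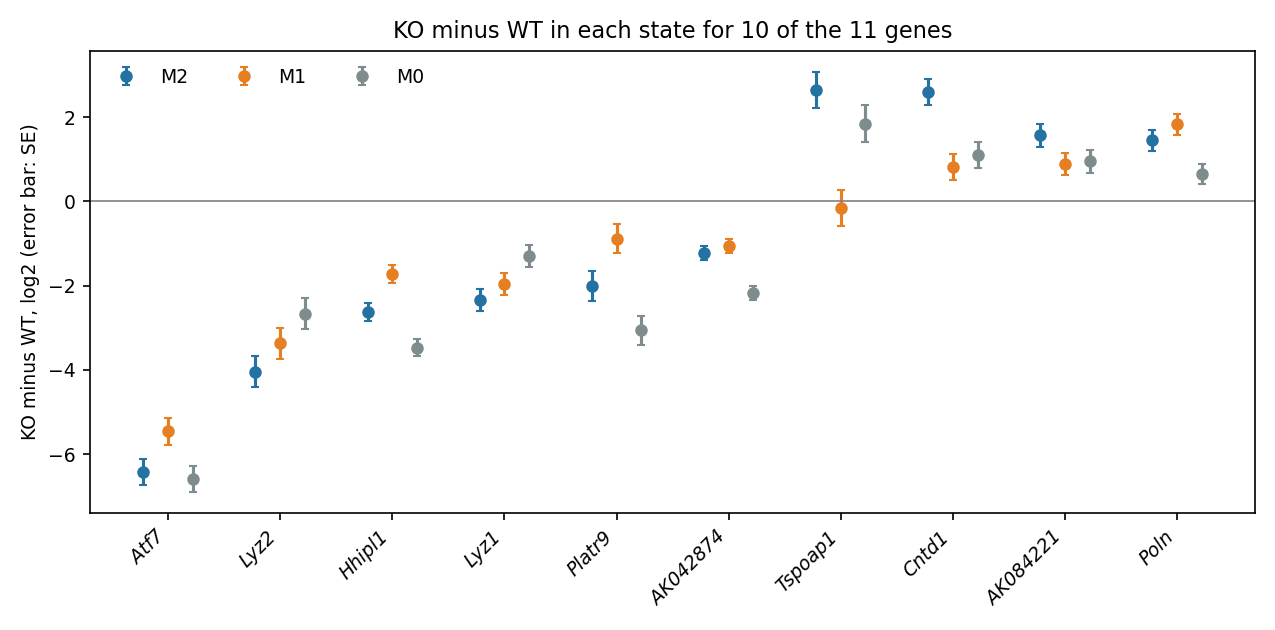
KO minus WT on the log2 scale with its SE for 10 of the 11 genes, in M2 (blue), M1 (orange) and M0 (grey), 4 arrays per group. The 6 lower genes drawn lie below 0 in each state, and Tspoap1 lies at 2.65 in M2 and -0.16 in M1.

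Slc2a1 itself did not pass the test. Its single probe, which starts at position 2501 of the transcript (chromosome 4, 118809864 to 118809923), read 3.64, 3.07, 3.16 and 3.04 in KO M2, against 4.37, 3.03, 3.30 and 2.91 in WT M2. The groups overlapped, and the difference was -0.18 ± 0.35 (adjusted p = 1, limma). Since the deleted exons are not given, this probe does not check the deletion, and RNA without an exon could still give its signal. Of 14 glucose transporter genes 11 were measured and 0 were called, with a median difference of 0.09. Slc2a3, a high-affinity transporter, averaged -0.59 in KO M2 and -0.70 in WT M2, and Slc2a6, a transporter of lysosomes, 4.54 and 4.30. The muscle and fat transporter Slc2a4 differed by 0.49 ± 0.44 and Slc2a8 by 0.09 ± 0.14.

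No gene of glycolysis passed the test. Of 33 on the list 32 were measured, all 32 lay within 1 log2 unit, 0 were called and the median was -0.05. Over all genes 97.5% lay within 1 log2 unit and 0.0424% were called. Hk1, Hk2 and Hk3, which phosphorylate glucose, differed by 0.34 ± 0.26, 0.20 ± 0.21 and -0.01 ± 0.15. The largest difference was that of Pfkl, a phosphofructokinase, with 0.17, 0.00, -0.02 and 0.99 in KO M2 and 1.34, 0.44, 0.44 and 0.85 in WT M2 (-0.48 ± 0.22, unadjusted p = 0.0419 and adjusted p = 1 in limma). Gapdh had 7.16, 6.87, 6.92 and 7.01 in KO M2 and 7.53, 6.98, 7.25 and 7.01 in WT M2, and Ldha, which makes lactate, had 6.83, 6.87, 6.66 and 6.72 in KO M2 and 6.95, 6.63, 6.95 and 6.76 in WT M2. These ranges overlapped. Pkm differed by -0.05 ± 0.16, and the lactate carriers Slc16a1 and Slc16a3 by -0.17 ± 0.17 and -0.35 ± 0.28. In the pentose phosphate pathway 0 of 11 genes were called (median 0.03), and its entry enzyme G6pdx differed by -0.29 ± 0.13. The hexosamine and glycogen list had 0 of 18 called and a median of -0.01.

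Txnip and Arrdc4 are known as glucose-responsive targets of the MondoA and ChREBP transcription factors, and TXNIP restrains glucose uptake. Txnip read 5.15, 5.69, 5.00 and 6.18 in KO M2, against 6.23, 6.23, 6.01 and 6.81 in WT M2. It was lower in the KO array of each of the 4 sets, although KO replicate 4 lay within the WT range. The difference was -0.81 ± 0.28 (unadjusted p = 0.00913, adjusted p = 0.884 in limma). Arrdc4 read 0.45, 0.66, 0.05 and 1.19 in KO M2, against 1.53, 1.22, 1.23 and 1.84 in WT M2, so that the groups did not overlap (-0.87 ± 0.28, unadjusted p = 0.00596, adjusted p = 0.747). Mlxipl, which encodes ChREBP, differed by 0.44 ± 0.17, and Mlxip, which encodes MondoA, by -0.07 ± 0.19. Of the 8 genes on this list 0 were called and 3 had an unadjusted p under 0.05, against 4.43% of all genes. The list was chosen with earlier results of these data known, so that count was not tested. In M1 the 2 targets parted: Txnip averaged 2.98 in KO M1 and 6.55 in WT M1, and Arrdc4 4.12 in KO M1 and 1.90 in WT M1. The M2 difference minus the M1 difference was 2.76 for Txnip (adjusted p = 1.83e-05) and -3.09 for Arrdc4 (adjusted p = 5.53e-06, limma).

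Several transcripts of the interleukin-4 response, such as Retnla, Chil3, Mrc1 and Arg1, were abundant in both genotypes. Others were dim, such as Ccl22, which averaged -4.71 in KO M2 and -3.93 in WT M2. Irf4, a transcription factor induced by interleukin-4, averaged 3.55 in KO M2 and -1.41 in KO M0, and 3.42 in WT M2 and -1.73 in WT M0. Of 30 effector genes of this response 29 were measured, 27 of them above background on all 8 arrays. Between KO M2 and WT M2 0 of them were called, against 0.0424% of all genes. Their median difference was -0.05, and 28 of the 29 lay within 1 log2 unit. In the 4 single sets their medians were -0.15 to -0.06, against -0.07 to 0.25 over all genes. Retnla, a secreted resistin-like protein, read 7.51, 7.84, 7.49 and 7.46 in KO M2, against 7.64, 7.42, 7.54 and 7.59 in WT M2. Chil3, a chitinase-like protein, read 7.21, 7.52, 7.02 and 7.27 in KO M2 and 7.31, 7.10, 7.47 and 7.33 in WT M2. Mrc1, the mannose receptor, read 6.51, 6.73, 6.61 and 6.94 in KO M2 and 6.61, 6.54, 6.76 and 7.01 in WT M2. For these 3 genes the ranges of the groups overlapped. They lie near the top of the scale, where Rn18s was the brightest gene with 8.15 in KO M2 and 8.04 in WT M2, and a loss of resolution at that end was not tested.

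Arg1, the arginase that turns arginine into ornithine and urea, was the effector whose groups did not overlap. It read 6.75, 7, 7.01 and 6.94 in KO M2, against 7.54, 7.07, 7.62 and 7.18 in WT M2, with every KO array below every WT array. The difference of -0.43 ± 0.37 did not pass (unadjusted p = 0.261, adjusted p = 1, limma). Within M2 the SD was 0.12 in KO and 0.27 in WT, while the SE draws on the spread of all 6 groups. The lack of a call therefore does not mean a wide spread within M2. The lectins Mgl2 and Clec10a differed by -0.29 ± 0.24 and -0.31 ± 0.59, and the chemokines Ccl17, Ccl22 and Ccl24 by 0.08 ± 0.61, -0.78 ± 0.74 and -0.39 ± 0.43. Il4i1, an oxidase of aromatic amino acids, read 6.58, 5.96, 5.55 and 5.58 in KO M2 and 6.28, 5.17 and 4.75 in the 3 WT M2 arrays with a value. Chil4, Cdh1 and Ch25h differed by -0.44 ± 0.76, -0.05 ± 0.62 and -0.86 ± 0.95. Cd36, a scavenger receptor for lipids, differed by 1.3 ± 0.69, but WT M2 replicate 2 read 1.16 where the other WT arrays read 5.79 to 6.10, and without that array the difference was 0.12.

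The receptor and its signalling genes gave 0 of 24 called and a median of 0.04. Il4ra differed by -0.08 ± 0.24 and Stat6 by -0.12 ± 0.10. The transcription factors Irf4, Egr2 and Pparg differed by 0.12 ± 0.23, 0.12 ± 0.57 and -0.06 ± 0.42. Socs3, an inhibitor of cytokine signalling, read 1.18, 0.28, -0.14 and -0.07 in KO M2, against -0.10, -0.65, -0.81 and -0.61 in WT M2. It was higher in the KO array of each set, with the lowest KO value below the highest WT value (0.86 ± 0.37, unadjusted p = 0.0308, adjusted p = 1, limma). The same sign in each set was found for 19.7% of genes. Socs1 differed by -0.12 ± 0.26. Batf3 differed by 1.13 ± 0.72, and by -0.10 without WT M2 replicate 2, where it read -0.38 against 4.38 to 4.70 on the other WT arrays.

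**Figure D3:**
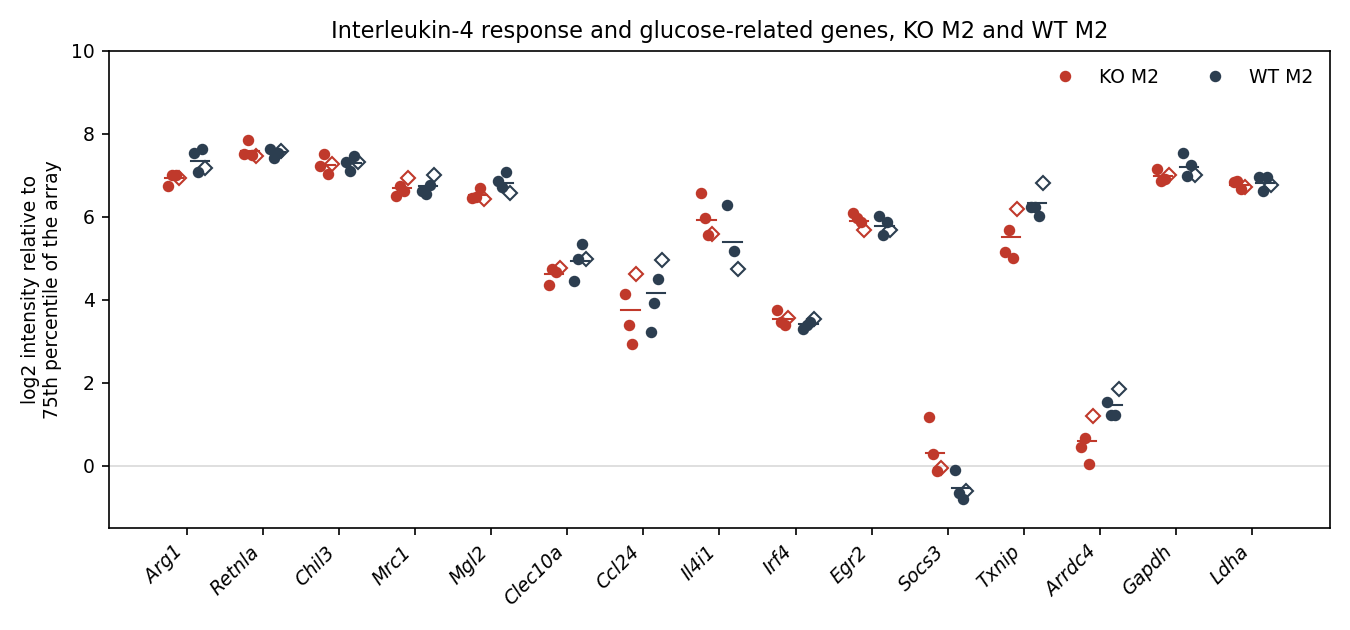
Level of interleukin-4 response genes (Arg1 to Socs3), Txnip, Arrdc4, Gapdh and Ldha on each array, as log2 intensity relative to the 75th percentile of the array, with KO M2 (red, left) and WT M2 (dark, right). Circles are replicates 1 to 3, open diamonds replicate 4 and bars means; every KO M2 value lies below every WT M2 value for Arg1 and Arrdc4, and the groups overlap for the others.

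Metabolism downstream of arginine and in the mitochondrion gave no call. On the list for arginine and polyamines 0 of 19 genes were called (median -0.08), with the arginine carrier Slc7a2 at -0.42 ± 0.39, Odc1, which makes putrescine, at -0.12 ± 0.27, and Ass1, which rebuilds arginine, at 0.42 ± 0.30. Nos2, the inducible nitric oxide synthase, and Arg2 differed by -0.35 ± 0.45 and 0.37 ± 0.77. The citric acid cycle list had a median of -0.11 over 26 genes and the respiratory chain list -0.12 over 26 genes, whose highest member stood at 0.00. Fatty acid oxidation had a median of 0.01 over 28 genes. Its member Acot1, an acyl-CoA thioesterase, read -0.88, -1.69, -1.03 and -1.24 in KO M2 and -1.78, -2.03, -2.04 and -2.24 in WT M2, without overlap (0.81 ± 0.28, unadjusted p = 0.01, adjusted p = 0.905, limma). The list for glutamine and amino acids had 0 of 18 called and a median of -0.01.

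In lipid synthesis the calls depended on the block. Scd1, a desaturase that makes monounsaturated fatty acids and is a target of the sterol sensor LXR, read -3.48, -5.26, -4.12 and -3.95 in KO M2, against -7.19, -6.99, -7.08 and -5.29 in WT M2. It was above background on 3 of 4 KO M2 arrays and 0 of 4 WT M2 arrays and so at least 2.13-fold higher in KO M2 (adjusted p = 0.504 in the fit without a block, 0.0397 with the set as a block and 0.0305 without the 4th set, limma). The highest WT M2 value was that of replicate 4. Its relative Scd2 read 4.89, 3.73, 4.22 and 4.74 in KO M2 and 3.71, 2.91, 2.84 and 4.08 in WT M2 (1.01 ± 0.41, adjusted p = 1). The LXR and lipid synthesis list had 0 of 23 called and a median of 0.16. Cholesterol synthesis had 0 of 24 called and a median of 0.08, with the sterol desaturase Sc5d at 2.77, 2.70, 2.70 and 2.68 in KO M2 and 2.43, 2.22, 2.48 and 2.47 in WT M2 (0.31 ± 0.10, adjusted p = 0.646).

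No stress response gene passed the test in M2. The unfolded protein response list, chaperones and sensors of the endoplasmic reticulum, had 0 of 24 called, a median of -0.17 in M2 and of 1.24 in M1, where 22 were called higher, against 22.7% of all genes. The difference between the states was called for 23 of the 24, all lower in M2, against 13.6% of all genes called lower. Pdia4, a disulfide isomerase, read 2.1, 2.4, 2.17 and 2.23 in KO M2 and 2.60, 2.4, 2.80 and 2.94 in WT M2 (-0.46 ± 0.17, adjusted p = 0.937, limma), and Hsp90b1 and Manf differed by -0.24 ± 0.14 and -0.31 ± 0.20. ATF4 targets, genes of amino acid supply and the integrated stress response, had 0 of 24 called and medians of 0.31 in M2 and 1.4 in M1. Among them Vldlr, a lipoprotein receptor, read -2.96, -2.58, -2.46 and -1.65 in KO M2 and -3.80, -4, -3.96 and -2.81 in WT M2 (1.23 ± 0.33, adjusted p = 0.483, and 0.0398 without the 4th set). The KO array was the higher in each set, with overlap only through WT M2 replicate 4, and 19.7% of genes had the same sign in each set. The amino acid carrier Slc7a3 differed by 0.83 ± 0.28 and Atf5 by 0.33 ± 0.16. Targets of the hypoxia factor HIF had a median of -0.07 over 18 genes, with Ndrg1 at 2.90, 2.94, 2.93 and 2.70 in KO M2 and 2.15, 2.2, 2.3 and 1.82 in WT M2 (0.75 ± 0.32, adjusted p = 1). The Ndrg1 groups did not overlap, with an SD of 0.11 in KO M2 and 0.21 in WT M2. As for Arg1, the SE of Ndrg1 draws on the spread of all groups. The NRF2 and glutathione list had 0 of 22 called and a median of 0.12.

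Inflammatory genes had 0 of 33 called and a median of 0.20. Il12b, a subunit of interleukin-12, read -3.22, -2.87, -2.56 and -1.74 in KO M2, against -5.56, -6.08 and -3.99 in the 3 WT M2 arrays with a value. The groups did not overlap, and the difference was 2.61 ± 0.48 (adjusted p = 0.0664, limma). It was above background on 4 of 4 KO M2 arrays and 2 of the WT M2 arrays, and the adjusted p was 0.0526 with the set as a block and 0.0227 without the 4th set. In M1, where the gene is strongly induced, it averaged 7.13 in KO M1 and 3.09 in WT M1. Nfkbiz, a regulator of NF-kB targets, differed by 0.86 ± 0.30, and the chemokine Cxcl10 read -1.74, -2.42, -3.12 and -1.49 in KO M2 and -1.03, -0.52, -1.84 and 0.25 in WT M2 (-1.41 ± 0.53, adjusted p = 0.954). Interferon-stimulated genes had 0 of 29 called and a median of -0.14, with Rsad2 at -1.18 ± 0.63. Their median was below 0 in each of the 4 sets (-0.25 to -0.06), against -0.07 to 0.25 over all genes. Antigen presentation had 0 of 21 called and a median of 0.13.

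Of the 36 lists, 647 of 669 genes were measured and 2 were called, against 0.0424% of all genes. At that share most lists this short would hold no called gene. Both called genes were lysozymes on the list of macrophage identity. The other 22 genes of that list included Cx3cr1, the fractalkine receptor, at 1.51 ± 0.74. Scavenger and efferocytosis genes had a median of 0.05, lysosomal genes 0.00, genes of cell fusion and osteoclasts -0.05, matrix metalloproteinases 0.07 and cell cycle genes 0.21, each with 0 called. Markers of other cell types had 0 called as well, and fewer cells of a type cannot be told apart from less RNA per cell in such samples. The summed linear level of the 15 neutrophil markers, relative to the 75th percentile, was 73.4 to 300 over the KO M2 arrays and 98.7 to 214 over the 3 WT M2 arrays with a value for each marker. The 5 B cell markers summed to 0.992 to 3.76 in KO M2 and 0.671 to 3.07 in the 3 such WT M2 arrays, with Cd79b making up 90.7% of the sum and lacking a value on WT M2 replicate 2. The 5 fibroblast markers summed to 0.632 to 4.24 in KO M2 and 0.907 to 1.52 in WT M2. The 9 dendritic cell markers summed to 50.8 to 64.7 in KO M2 and 40 to 54.5 in the 3 WT M2 arrays with a value for each marker. Siglech alone made up 99.3% of that sum, and only 2 of the 9 were above background on all 8 arrays. T and NK cell, red cell and platelet, mast cell and eosinophil markers had median differences of 0.18, 0.07, 0.69 and -0.20. The ranges of the summed levels overlapped for each list, and the part of other cells in the results was not tested.

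**Figure D4:**
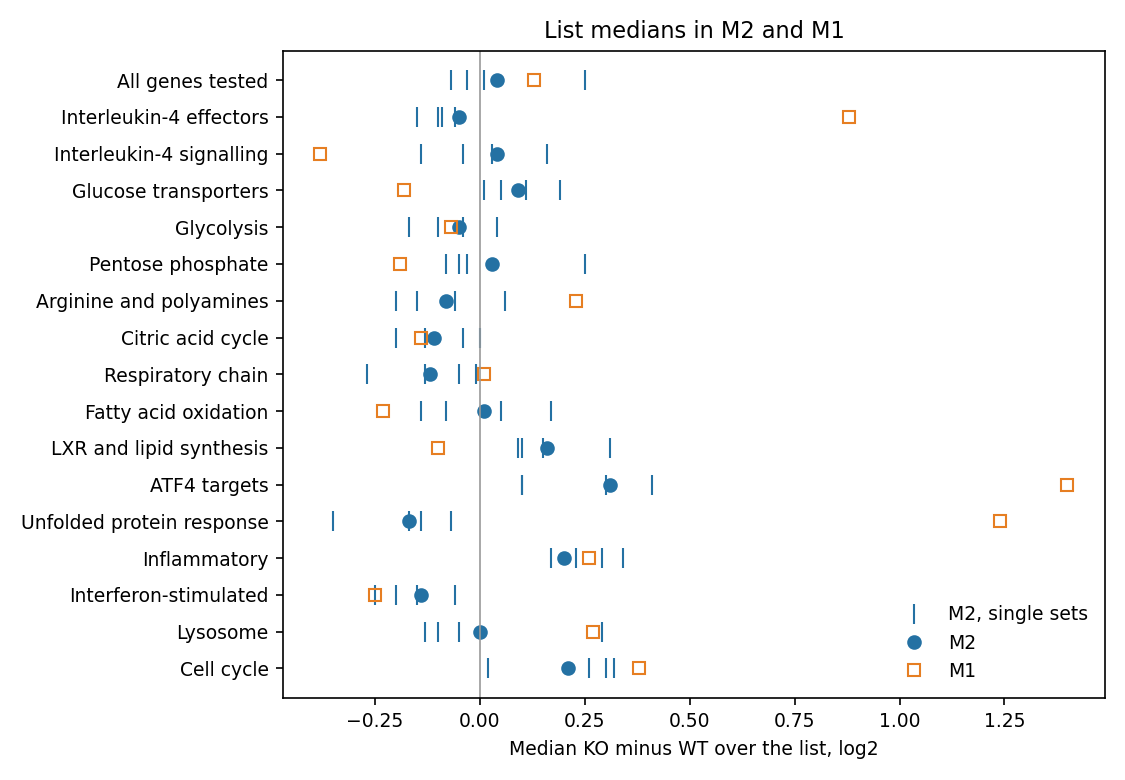
Median KO minus WT difference over gene lists on the log2 scale, in M2 (filled circles, with a tick for each of the 4 sets of arrays) and in M1 (open squares). The M2 medians shown lie between -0.17 and 0.31, and the M1 medians of the unfolded protein response (1.24) and ATF4 targets (1.4) lie farthest to the right among the lists drawn.

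Other genes outside the lists had groups that did not overlap and were not called. Farp1, a regulator of small GTPases, read -1.49, -1.79, -1.98 and -1.80 in KO M2 and -2.60, -3.95, -3.44 and -3.04 in WT M2 (1.49 ± 0.30, adjusted p = 0.111, and 0.0279 with the set as a block, limma). H2-Q5, a class I histocompatibility gene with near copies in the genome, read 0.75, 0.62, 0.15 and 1.01 in KO M2 and -1.01, -0.89, -1 and 0.05 in WT M2 (adjusted p = 0.141, and 0.0491 with the block). Fgf9, Apold1, Agrp and Tppp differed by 1.81, 1.77, 1.63 and 1.48, each above background on 4 of 4 KO M2 arrays and 1 of 4 WT M2 arrays, and the last 3 of them were called without the 4th set (adjusted p = 0.0129, 0.023 and 0.000793). Zbtb16, a zinc finger transcription factor, read -1.93, -1.68, -1.71 and -2.09 in KO M2 and -2.60, -2.63, -2.64 and -2.84 in WT M2 (0.82 ± 0.17, adjusted p = 0.141, and 0.0279 with the block). Fam221a, Syt8 and Cmtm8, whose groups overlapped, differed by 0.85, 0.81 and 0.73 and were called with the set as a block (adjusted p = 0.0271, 0.0475 and 0.0126). Among lower genes, the olfactory receptor Olfr706 and the melanocortin receptor Mc3r differed by -1.26 and -1.25 and were called with the block, with adjusted p = 0.0279 and 0.0353 there and 0.059 and 0.458 without it. Msx3 differed by -1.27 ± 0.52. Snora78 differed by -1.48 ± 0.44, and by -0.79 without WT M2 replicate 2.

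The M2 comparison held 11 calls, M0 held 14 and M1 held 11396. The difference between KO and WT in M2 was tested against that in M0 directly, and 0 of 25936 genes passed (0%), with 258 at an unadjusted p under 0.05 (0.995%, limma). That share is below the one this threshold gives where no gene differs, so the test was conservative. The count of 0 therefore does not show that the M2 and M0 differences are alike. Against M1, 7681 genes passed (29.6%): the KO minus WT difference was higher in M2 for 4154 (16%) and lower for 3527 (13.6%). In M2 97.5% of all genes lay within 1 log2 unit, against 73.2% in M1, and of the genes called in M1 98.7% lay within 1 log2 unit in M2. Arg1 differed by -0.43 in M2, by -5.04 in M1 and by -1.55 in M0. In M1 it averaged 1.05 in KO M1 and 6.10 in WT M1. Retnla differed by 0.02 ± 1.41 in M2, and its M0 levels were 0.40, 4.62, 2.84 and 1.12 in KO M0, against -8.14, -5.21, -4.37 and 0.97 in WT M0. The wide spread of Retnla in M0 and M1 enters the SE of all states, since the fit has 1 spread per gene.

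**Figure D5:**
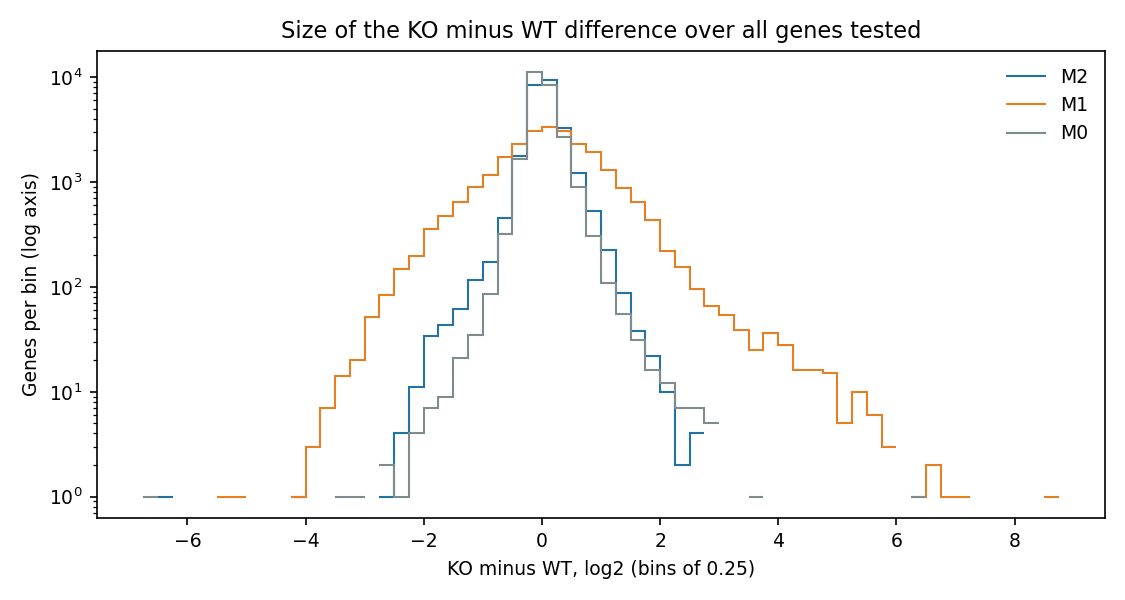
Number of genes (log axis) by the size of the KO minus WT difference in bins of 0.25 log2 units, in M2 (blue), M1 (orange) and M0 (grey), over the 25936 genes tested. The M2 and M0 outlines lie close together and the M1 outline is wider, with 97.5% of genes within 1 log2 unit in M2 and 73.2% in M1.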

How the data were processed

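The deposited scanner files hold, per the file headers, the Agilent Feature Extraction processed signal (version 10.7.3.1, while the submitters' processing notes name 9.1), a linear intensity that the authors' software corrected for background within each array. Probes were named through RefSeq by accession (33895) or symbol (9464), and the other 13246 kept the file's name. The log2 intensity was computed here and scaled to each array's 75th percentile. Of 56605 gene probes, 39036 were well above background on at least 4 of 24 arrays, and the brightest stood for a gene. Spots marked as outliers were left out. limma 3.58.1 (R 4.3.3) fitted the 6 group means over all 24 arrays, and p-values were adjusted by Benjamini-Hochberg. The fit was tested on simulated data with independent noise. These had no sets, outlying arrays or background floor, so that test does not bear on such features. A fold given as "at least" compares the mean of the brighter group with the dimmest signals well above background on the other group's arrays.

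For M2 the replicate number equals the set of arrays. Deviations of KO and WT arrays of the same number correlated at 0.51, 0.18, 0.19 and 0.69, so the numbers were taken as pairs and the set was a block in an alternative fit. The slides, 3 in all, were another block. The series design names biological replicates without giving the mice behind them, so p-values measure the spread between these samples.

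The text names Slc2a1, Lyz2 and Lyz1, the called genes, the 10 largest in each direction without overlap, with the set block and in M2 against M1, leaving out clones and predicted loci there, and, of the gene lists, any member of 6 lists and elsewhere the 3 of smallest p or those called in any fit. Csf1r, Adgre1, Cd68, Rn18s and the sex-linked genes are shown as checks. The comparison, its members and the lists were chosen with earlier results of these data known. One of the called genes is not reported here.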

Additional observations from a re-analysis of the deposited data

Results flagged for a closer look

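The KO minus WT difference in M2 departed from that in M1 past an adjusted p of 0.05 (limma) for 52 of the 108 genes named, against 29.6% of all genes (7681 of 25936). Of these, 10 in each direction were named for having the largest such values, so their passing was fixed by that choice. The values below are the M2 difference minus the M1 difference on the log2 scale. It was higher in M2 for Arg1 (4.61), Tlr12 (3.93), Fabp7 (3.81), Chrm3 (3.77), Dnaaf4 (3.66), Notch4 (3.64), Prr15 (3.63) and Sectm1a (3.60). So it was for Cd300lb (3.58), Gpr18 (3.48), Batf3 (3.22), Tspoap1 (2.82), Txnip (2.76), Arrdc3 (2.46), Clec10a (2.4) and Agrp (2.09). The smaller ones were Cntd1 (1.79), Scd2 (1.63), G6pdx (1.34), Il4ra (1.18), Slc16a3 (1.18), Socs1 (1.05) and Stat6 (0.85). Arg1 averaged 6.92 in KO M2 and 7.35 in WT M2, and 1.05 in KO M1 and 6.10 in WT M1. Tlr12 averaged -3.12 in KO M2 and -3.86 in WT M2, and -2.16 in KO M1 and 1.02 in WT M1.

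The difference was lower in M2 for Lpar3 (-7.65), Hamp (-7.22), Rtn4r (-6.78), Retnla (-6.52), Apcdd1 (-6.49), Derl3 (-6.21), Efcc1 (-6.09) and Bex1 (-6.07). Next came Kif1a (-6.06), Rasd2 (-5.97), Ccl22 (-3.54), Arrdc4 (-3.09), Msx3 (-3.06), Eno2 (-3.00), Slc16a1 (-2.77) and Mrc1 (-2.67). Further genes were Slc7a2 (-2.18), Pdia4 (-2.15), Mc3r (-2), Manf (-1.99), Odc1 (-1.88), Snora78 (-1.82), Hk2 (-1.73) and Hsp90b1 (-1.70). The remaining ones were Acot1 (-1.24), Olfr706 (-1.04), Atf5 (-0.95), Pfkl (-0.92) and Hhipl1 (-0.90). Lpar3 averaged -6.43 in KO M2 and -7.34 in WT M2, and 0.88 in KO M1 and -7.68 in WT M1. Retnla averaged 7.57 in KO M2 and 7.55 in WT M2, and -0.60 in KO M1 and -7.15 in WT M1. Hamp and Apcdd1 had M2 differences of -1.62 and -0.79, which were 0.41 and 0.48 without WT M2 replicate 2.

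One array stood far from the other 3 of its group for 16 of 216 groups of named genes, where chance gives about 1 in 20. The share of the group range taken by that gap is given for each. Lyz1 read 3.51 on KO M2 replicate 4, against 2.29 to 2.42 on the others (0.893). Cntd1 read -7.13 on WT M2 replicate 4, against -6.24 to -6.15 on the others (0.908). H2-Q5 read 0.05 on WT M2 replicate 4, against -1.01 to -0.89 on the others (0.887). Zbtb16 read -2.84 on WT M2 replicate 4, against -2.64 to -2.60 on the others (0.833). Hamp read 0.45 on WT M2 replicate 2, against -7.85 to -7.53 on the others (0.961). Apcdd1 read 0.81 on WT M2 replicate 2, against -4.65 to -3.96 on the others (0.874). Rasd2 read -1.47 on KO M2 replicate 4, against -3.90 to -3.77 on the others (0.947). Retnla read 7.84 on KO M2 replicate 2, against 7.46 to 7.51 on the others (0.868). Cd36 read 5.69 on KO M2 replicate 4, against 6.11 to 6.18 on the others (0.857). Cd36 read 1.16 on WT M2 replicate 2, against 5.79 to 6.10 on the others (0.937). Batf3 read -0.38 on WT M2 replicate 2, against 4.38 to 4.70 on the others (0.937). Hk1 read 6.17 on KO M2 replicate 2, against 5.76 to 5.82 on the others (0.854). Pkm read 6.87 on KO M2 replicate 1, against 6.55 to 6.57 on the others (0.937). Vldlr read -2.81 on WT M2 replicate 4, against -4 to -3.80 on the others (0.832). Scd1 read -5.29 on WT M2 replicate 4, against -7.19 to -6.99 on the others (0.895). Ndrg1 read 2.70 on KO M2 replicate 4, against 2.90 to 2.94 on the others (0.833).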

How the results depend on the processing

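The count of 11 called genes stayed within 1.5 times under normexp background correction (10), quantile normalization (14), no filter (10), stricter filters (12 and 9), the mean of probes (12), the slide block (10) and a 2-fold minimum (11). It moved to 28 with the set as a replicate block, 58 with array weights, 60 without the 4th set, 121 with that set left out and the replicate block (an alternative chosen after seeing the data), 6 in the 8 M2 arrays alone and 1 in those with the replicate block. Without 1 replicate number it was 5 to 11, and without 1 array 6 to 15. Higher genes made up 36.4% of the calls, but 50% under normexp and under the mean of probes, 64.3% with the set block, 83.3% without the 4th set, 90.1% with both and 12.5% without KO M2 replicate 1. The count for M2 against M1 was 6697 to 9832. Its share of higher genes was 54.1%, but 48.6% under normexp, 49.3% without replicate 2 and 60.1% under quantile normalization, so that the majority direction turned, and that for M2 against M0 was 0 throughout. No called difference changed sign among the named genes, Atf7 was called under each of 25 alternatives at -6.68 to -1.2, and 16 named genes gained a call under at least 1. The members changed more than the count. Under normexp 8 of the 11 kept their call, and Platr9, AK042874 and AK084221 lost it. Platr9 lost its call in 17 of 25 alternatives, Poln in 13 of 25, AK084221 in 12 of 24 and Tspoap1 in 9 of 25. AK042874 lost it in 4 of 24, Lyz1 and Cntd1 in 2 of 25, and Lyz2 and Hhipl1 in 1 of 25. Of 828 list medians, 781 stayed within the spread of the sets. The causes were not tested. Weak signal limits Hhipl1, Cntd1, Platr9 and Scd1, near background in 1 group, and AK042874 and AK084221, near background in both.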
